A study of Macaca mulatta with 449 samples.

Results

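The temporal polar gyrus (TPG, the temporal pole) and the occipito-temporal gyrus (OTG) lie at opposite ends of the temporal lobe, and each was dissected from the brains of the same 8 rhesus macaques (Macaca mulatta). The comparison takes the 8 TPG and the 8 OTG samples, 16 of the 408 samples in the count table, which covers 51 brain sub-regions with 8 samples each. The samples are those that carry these region labels, and the animal was kept as a block because each animal gave both samples. The 4 males were Rhesus 2, 3, 7 and 8 and the 4 females were Rhesus 4, 6, 10 and 11. The young animals were aged 3.2 years (Rhesus 4), 3.8 years (Rhesus 8), 4 years (Rhesus 7) and 5 years (Rhesus 10), and the mid-aged animals 9.8 years (Rhesus 11) and 10 years (Rhesus 2, 3 and 6). The labels name no treatment or genetic change in any of them, so the groups differ in the site of the tissue. Total RNA was depleted of ribosomal RNA and sequenced, and reads were counted per gene. Each library is bulk tissue from a small block of cortex, in which the number of cells of a type and the RNA per cell cannot be told apart.

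The temporal pole is paralimbic association cortex next to the amygdala and the entorhinal cortex, with a thin layer 4, light myelin and links to memory, emotion and social behavior. The occipito-temporal gyrus adjoins the occipital lobe and belongs to the ventral visual stream. Along the primate cortex, sensory areas are known for a thick layer 4, heavy myelin and fast-spiking interneurons that hold parvalbumin, whereas paralimbic areas are richer in molecules of plasticity and growth. The comparison asks which genes differ between these ends of the lobe, and in which of the other sub-regions the same genes are high or low.

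Markers of excitatory cortical neurons were abundant in every library. On the scale of CPM (counts divided by TMM-scaled library sizes), SLC17A7, which encodes the vesicular glutamate transporter of cortical neurons, lay at 789 to 1129 CPM (median 955) in TPG and at 486 to 744 CPM (median 657) in OTG. The interneuron gene GAD1 lay at 349 to 439 CPM (median 413) in TPG and at 378 to 543 CPM (median 442) in OTG, and it was not called different (FDR = 0.141). The summed level of the blood markers found in the table was 2.71 to 18.2 CPM in TPG and 1.84 to 7.27 CPM in OTG. That of the choroid plexus markers was 14.5 to 33.5 CPM and 6.08 to 23.4 CPM. Both sums leave out main markers, since HBB of blood and TTR of choroid plexus had no matching symbol. Summed levels for other neighbouring tissues are given with their genes below. The 16 libraries held 8955543 to 19414263 counts on genes, with more counts in the OTG than in the TPG library of 6 of the 8 animals. In the quality sheet of the study, the OTG sample of Rhesus 11 has the lowest RNA integrity number of the 16, and counts without this animal are given below.

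A large part of the expressed genes differed between the poles of the lobe. Of 14499 genes tested, 6828 were called at a false discovery rate (FDR, edgeR's quasi-likelihood test with Benjamini-Hochberg adjustment) below 0.05, which is 47.1% of those tested. In TPG 3454 genes were higher (23.8%), and in OTG 3374 were higher (23.3%). Most differences were small, with a median absolute log2 fold change (log2FC, TPG over OTG) of 0.46 among the called genes, and the median log2FC over all genes tested was 0.0048. Differences over 2-fold were found for 601 genes higher in TPG (4.15% of genes tested) and 325 genes higher in OTG (2.24%). Over 4-fold, 106 genes were higher in TPG and 71 in OTG. The direction was the same in all 8 animals for 538 of the 601 genes and for 294 of the 325. The 8 TPG values lay entirely above the 8 OTG values for 668 genes (4.61% of those tested), and entirely below for 618 (4.26%). Within single animals, 584 to 599 of the 601 genes were higher in TPG and 315 to 325 of the 325 were higher in OTG. The 601 and 325 genes were chosen from these same libraries, which favors such agreement between animals. Without Rhesus 11, 3004 genes were called higher in TPG and 2890 in OTG. A gene symbol was known for 500 of the 601 genes and for 247 of the 325, and the genes below were named by a fixed rule among these.

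**Figure D1:**
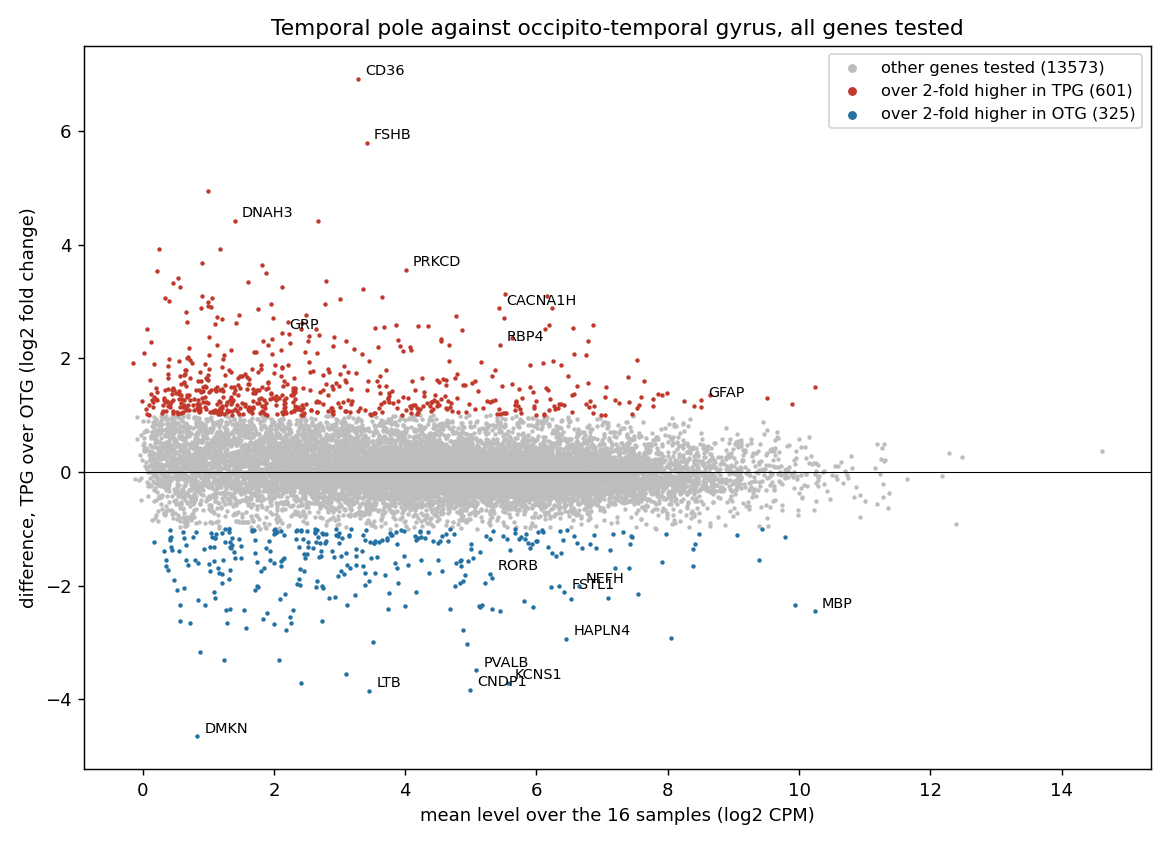
Difference between TPG and OTG (log2FC, positive where TPG was higher) against the mean level over the 16 samples (log2 CPM) for the 14499 genes tested. The 601 genes called over 2-fold higher in TPG are red, the 325 called over 2-fold higher in OTG are blue and all others are grey. CD36, FSHB and DNAH3 are among the upper extremes and DMKN, LTB, CNDP1 and KCNS1 among the lower ones.

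The genes with the largest excess in TPG were CD36, FSHB, DNAH3, SERPINB13, FER1L6, NXNL2, RHAG, PRKCD, PTGER3 and RDM1, all higher in TPG in 8 of 8 animals. CD36, a scavenger receptor that takes up fatty acids, lay at 11.1 to 26.4 CPM (median 21.1) in TPG and at 0 to 0.379 CPM (median 0.162) in OTG. The groups did not overlap, and the OTG value rests on 17 counts over the 8 libraries, against 1673 in TPG (log2FC 6.92 ± 0.26, FDR = 8.00e-11, where ± gives the standard error of the fit here and below). FSHB, the beta subunit of the pituitary hormone follitropin, lay at 11.8 to 29.6 CPM (median 22.7) in TPG and at 0.0838 to 0.738 CPM (median 0.302) in OTG (log2FC 5.79 ± 0.17, FDR = 9.27e-12). No OTG library reached the lowest TPG library. On CPM scaled over all 408 samples, the median of FSHB was 22.5 CPM in TPG and 40.8 CPM in the amygdala (22.6 to 80.9 CPM). It was 52.5 CPM in the pituitary, where the libraries ranged widely (5.15 to 1279 CPM). It was 10.6 CPM in the insula and 9.51 CPM in the entorhinal and perirhinal cortex. Other hormone genes of the pituitary were looked up after the level of FSHB was seen. LHB and CGA, which gonadotropin-producing cells make along with FSHB, had 11 and 9 counts over the 8 TPG libraries, against 1806 for FSHB. In the pituitary, LHB had a median of 479.5 CPM (2.65 to 1243 CPM) and CGA of 2446 CPM (836 to 5302 CPM). PRL, which encodes prolactin, had 383 counts in TPG, 189 of them in a single library, and 229 counts in OTG.

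PRKCD, a protein kinase C of the diacylglycerol pathway, lay at 24.2 to 35.4 CPM (median 30.6) in TPG and at 1.16 to 3.94 CPM (median 2.71) in OTG (log2FC 3.55 ± 0.14, FDR = 2.00e-10). SERPINB13, a serine protease inhibitor of the clade B serpins, lay at 8.41 to 17.1 CPM (median 12.5) and 0.194 to 1.28 CPM (median 0.525) (log2FC 4.42 ± 0.26, FDR = 7.83e-09). Both genes separated the sub-regions without overlap. PTGER3, a receptor for prostaglandin E2, lay at 2.66 to 9.31 CPM (median 7.06) and 0.145 to 1.07 CPM (median 0.598) (log2FC 3.50 ± 0.23, FDR = 2.64e-08). RHAG, a glycoprotein related to the Rh blood group antigens, had log2FC 3.65 ± 0.24, and its level was highest in the caudate nucleus among the 51 sub-regions. DNAH3, an axonemal dynein, had log2FC 4.42 ± 0.23. The ferlin-family gene FER1L6 (3.93 ± 0.30) had its highest mean of all 51 sub-regions in TPG. NXNL2 (3.67 ± 0.31), a thioredoxin-like gene, and RDM1 (3.41 ± 0.46) rested on 28 and 25 counts in OTG.

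Among the genes with the largest excess in OTG were the potassium channel subunit KCNS1, the calcium-binding protein PVALB and the matrix linker HAPLN4, together with DMKN, LTB, CNDP1, FBXO40, GASK1B and DACT2. All were higher in OTG in 8 of 8 animals and did not overlap between the groups. KCNS1, a subunit that modifies voltage-gated potassium channels, lay at 17.9 to 134 CPM (median 77.3) in OTG and at 2.63 to 10.3 CPM (median 6) in TPG (log2FC -3.72 ± 0.13, FDR = 6.06e-11). The lowest OTG value came from Rhesus 4. PVALB, the calcium buffer of fast-spiking interneurons, lay at 51 to 77.9 CPM (median 56.5) in OTG and at 2.38 to 10.8 CPM (median 5.46) in TPG (log2FC -3.49 ± 0.16, FDR = 6.25e-10). HAPLN4, which links hyaluronan to proteoglycans in nets around fast-spiking neurons, lay at 95.1 to 210.3 CPM (median 159.9) and 14.9 to 29.7 CPM (median 18.7) (log2FC -2.94 ± 0.13, FDR = 3.05e-10).

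The other OTG genes were of mixed kinds. LTB, a cytokine of the tumor necrosis factor family, lay at 12.1 to 35.3 CPM (median 16.8) in OTG and at 0.705 to 2.1 CPM (median 1.09) in TPG (log2FC -3.85 ± 0.19, FDR = 1.01e-09). CNDP1, a carnosine dipeptidase, lay at 37 to 99.9 CPM (median 56.1) and 2.02 to 7.54 CPM (median 3.47) (log2FC -3.84 ± 0.13, FDR = 6.05e-11), and its mean was 343 ± 63.2 CPM (SD, n = 8) in the corpus callosum, where myelin genes are high. The Golgi kinase-related GASK1B had log2FC -3.04 ± 0.18, the Dishevelled-binding DACT2 -2.99 ± 0.18 and the F-box gene FBXO40 -3.17 ± 0.23. DMKN, a secreted protein known from skin, had 310 counts in OTG and 9 in TPG, where no library had more than 3, and its log2FC of -4.66 ± 0.41 is therefore imprecise.

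**Figure D2:**
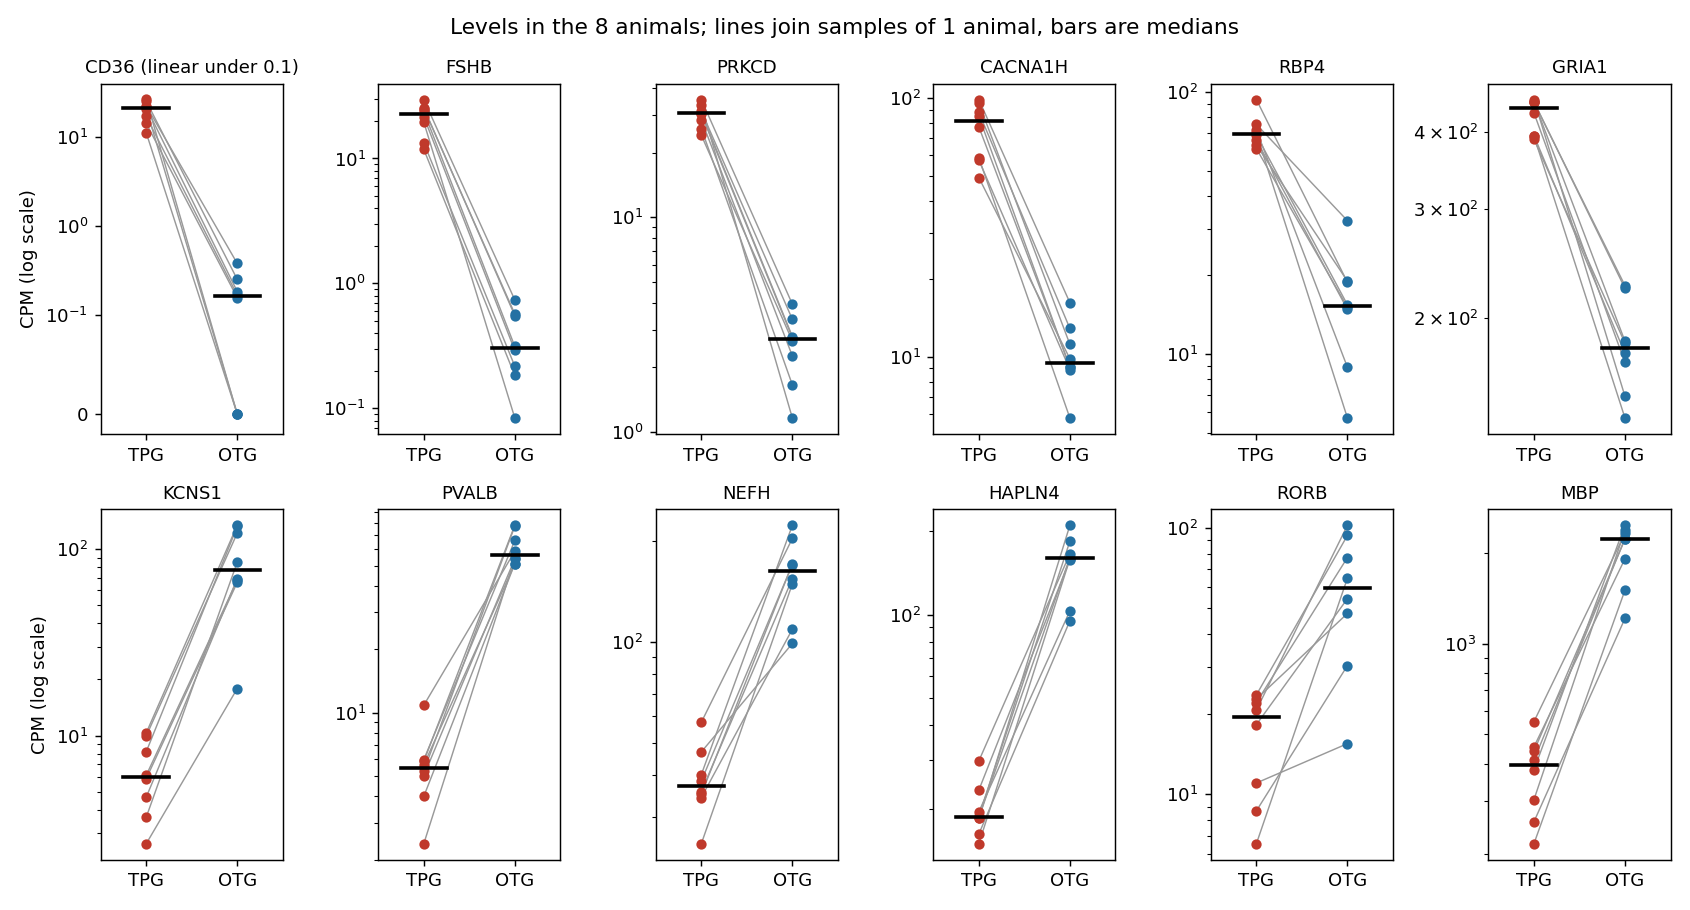
Levels (CPM, log axis) of 12 genes in TPG (red) and OTG (blue), with a line for each of the 8 animals and a black bar at the median. The upper row holds genes higher in TPG and the lower row genes higher in OTG, and all 96 lines run in the direction of their row, while the ranges of the groups overlap for RORB alone.

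Genes known for sensory areas of primate cortex were higher in OTG, and most of those known for association areas were higher in TPG. All 7 genes known for high levels in primary visual or other sensory areas were called higher in OTG (background 23.3%), with a median log2FC of -0.996. The study names PVALB, FSTL1 and OSTN among the top genes of an occipital module drawn from the cortical samples of this series. Their place in the list is therefore not independent of these data. OSTN, an activity-regulated secreted protein of primate neurons, lay at 2.53 to 18.7 CPM (median 4.94) in OTG and at 0.502 to 1.62 CPM (median 0.918) in TPG (log2FC -2.68 ± 0.24, FDR = 5.42e-07). FSTL1, a follistatin-like secreted protein, lay at 87.6 to 189 CPM (median 147) and 23.3 to 44.4 CPM (median 31.7) (log2FC -2.12 ± 0.093, FDR = 3.73e-10). Neither gene overlapped between the groups. The serotonin receptors HTR1B (-0.996 ± 0.16) and HTR2A (-0.37 ± 0.087) and the testican proteoglycans SPOCK1 (-0.57 ± 0.12) and SPOCK2 (-0.34 ± 0.081) differed less.

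Of the 5 association cortex genes, 4 were called higher in TPG (background 23.8%). RBP4, the retinol carrier, lay at 60.8 to 93.6 CPM (median 69.1) in TPG and at 5.7 to 32.3 CPM (median 15.3) in OTG (log2FC 2.23 ± 0.19, FDR = 2.97e-07). SLIT1, a repulsive axon guidance ligand, lay at 69.5 to 196 CPM (median 142) and 13.2 to 69.9 CPM (median 32) (log2FC 1.88 ± 0.19, FDR = 1.94e-06), with ranges that overlapped slightly. PNMA5, of the paraneoplastic Ma antigen family, lay at 41.5 to 77 CPM (median 60) and 9.55 to 27.3 CPM (median 20.6) (log2FC 1.68 ± 0.12, FDR = 6.70e-08). The growth cone protein GAP43 was near the threshold (log2FC 0.26 ± 0.10, FDR = 0.0452) and missed it when Rhesus 2, 3, 6 or 10 was left out. The synaptic organizer CBLN2 was not called (log2FC -0.21 ± 0.09, FDR = 0.0647) and passed, higher in OTG, without Rhesus 2 or 3.

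Genes of fast firing and large axons were nearly all higher in OTG. Of 11 tested members, 10 were higher in OTG (90.9%, against a background of 23.3%), and the median log2FC was -1.35. Over 2-fold, 8 of the 11 were higher in OTG, against 2.24% of all genes. NEFH, the heavy neurofilament chain of large axons, lay at 98.9 to 223 CPM (median 162) in OTG and at 25 to 57.6 CPM (median 37.1) in TPG (log2FC -2.02 ± 0.13, FDR = 2.26e-08). No TPG library reached the lowest OTG library. The sodium channel SCN1A (-1.65 ± 0.091), the synaptotagmin of fast release SYT2 (-2.36 ± 0.22) and the complexin CPLX1 (-1.27 ± 0.10) were higher too. The other neurofilament chains had log2FC -1.11 ± 0.075 (NEFM) and -0.76 ± 0.07 (NEFL). The Kv3 channel KCNC1, which allows short action potentials, lay at 118 to 190.4 CPM (median 141) and 49.7 to 65.8 CPM (median 58.1) (log2FC -1.35 ± 0.074, FDR = 4.48e-09), and its relative KCNC2 had log2FC -0.32 ± 0.069. SCN8A, the sodium channel of nodes and axon initial segments, was not called (log2FC -0.26 ± 0.19, FDR = 0.274).

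Genes of perineuronal nets, the matrix around fast-spiking cells, were split, with 4 of 6 higher in TPG (66.7%, against a background of 23.8%) and 2 in OTG (33.3%, against 23.3%). HAPLN4 and the core proteoglycan ACAN (-0.53 ± 0.17) were higher in OTG, whereas TNR, BCAN, VCAN and PTPRZ1 were higher in TPG. BCAN, the brevican made largely by glia, lay at 149.9 to 244 CPM (median 191) in TPG and at 105 to 126 CPM (median 118) in OTG (log2FC 0.74 ± 0.07, FDR = 9.16e-07). TNR, the tenascin that joins net components, lay at 22.9 to 103 CPM (median 54.4) and 5.32 to 42.9 CPM (median 29.3) (log2FC 1.03 ± 0.22, FDR = 0.00121), and its mean in TPG was the highest of the 51 sub-regions. ACAN missed the threshold without Rhesus 2, 3 or 6, and PTPRZ1 without Rhesus 8 or 11.

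Markers of cortical layers differed in opposite directions. The 3 tested layer 4 markers were all higher in OTG (background 23.3%), with a median log2FC of -1.78. RORB, the nuclear receptor of layer 4 neurons, lay at 15.5 to 102 CPM (median 59.5) in OTG and at 6.53 to 23.6 CPM (median 19.5) in TPG (log2FC -1.79 ± 0.20, FDR = 5.70e-06), with an overlap between the lowest OTG library and the upper TPG libraries. EYA4, a transcriptional coactivator, lay at 9.18 to 34.9 CPM (median 16.2) and 1.95 to 7.19 CPM (median 4.79) without overlap (log2FC -1.78 ± 0.14, FDR = 9.57e-08). KCNH8, a voltage-gated potassium channel, had log2FC -1.61 ± 0.25. The summed level of the layer 4 markers was 32.6 to 136 CPM in OTG and 15.8 to 32.7 CPM in TPG, and it was higher in OTG in all 8 animals.

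All 5 markers of layers 2 and 3 were higher in TPG (background 23.8%), with a median log2FC of 0.85. CALB1, the calcium buffer calbindin, lay at 200.3 to 384 CPM (median 249) in TPG and at 46 to 279.7 CPM (median 98.5) in OTG (log2FC 1.32 ± 0.20, FDR = 6.80e-05). The ranges overlapped. CARTPT (1.23 ± 0.17), LAMP5 (0.85 ± 0.10), RASGRF2 (0.58 ± 0.10) and CUX2 (0.33 ± 0.088) were the others. Of 6 layer 5 markers, HTR2C (-0.85 ± 0.22), PCP4 (-0.71 ± 0.13) and ETV1 (-0.48 ± 0.093) were higher in OTG (3 of 6, background 23.3%), and FEZF2, BCL11B and TSHZ2 were not called, although BCL11B passed, higher in TPG, without Rhesus 2, and 1 layer 5 gene passed without Rhesus 10. Of 8 layer 6 markers, 3 were higher in TPG (background 23.8%) and 2 in OTG (background 23.3%), and TLE4, SYT6 and NXPH4 were not called, except TLE4 without Rhesus 7 and SYT6 without Rhesus 2, 3 or 11. FOXP2, a transcription factor of corticothalamic neurons, lay at 24 to 61 CPM (median 45.8) in OTG and at 5.72 to 22.3 CPM (median 11) in TPG without overlap (log2FC -1.91 ± 0.12, FDR = 1.49e-08), and the guidance ligand SEMA3E had log2FC -1.57 ± 0.32. The deep-layer markers NTNG2 (0.97 ± 0.10), CCN2 (1.05 ± 0.16) and NR4A2 (0.50 ± 0.12) were higher in TPG. All 4 tested claustrum markers, NTNG2, NR4A2, GNB4 (1.24 ± 0.11) and SYNPO2 (0.52 ± 0.17), were higher in TPG (background 23.8%), SYNPO2 not without Rhesus 8. Their summed level was 66.4 to 124 CPM in TPG and 38.5 to 59.6 CPM in OTG, and the claustrum lies beside the anterior temporal lobe. The part of claustral tissue in these values was not tested.

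Of 9 general excitatory markers, 4 were higher in TPG (44.4%, against 23.8%) and 3 in OTG (33.3%, against 23.3%), all less than 2-fold. SLC17A7 (0.57 ± 0.072), NEUROD6 (0.88 ± 0.14), NEUROD2 (0.49 ± 0.11) and CAMK2A (0.22 ± 0.07) were higher in TPG, and CAMK2A missed the threshold without Rhesus 8. SLC17A6, the vesicular transporter typical of thalamic neurons, lay at 101 to 212 CPM (median 125) in OTG and at 50.9 to 83.2 CPM (median 75.1) in TPG without overlap (log2FC -0.91 ± 0.087, FDR = 9.53e-07). TBR1 (-0.995 ± 0.17), a transcription factor of cortical projection neurons, was also higher in OTG.

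Of 14 interneuron genes, 4 were called higher in TPG (28.6%) and 3 in OTG (21.4%), which is close to the shares over all genes of 23.8% and 23.3%. Besides PVALB, the tachykinin precursor TAC1 was higher in OTG (-0.67 ± 0.11). CALB2 (1.01 ± 0.15), which encodes calretinin, NPY (1.00 ± 0.18), SST (0.76 ± 0.13) and LHX6 (0.31 ± 0.08) were higher in TPG. SST lay at 100.2 to 188 CPM (median 134) in TPG and at 42 to 165 CPM (median 78) in OTG, with overlapping ranges but a higher value in TPG in 8 of 8 animals. SLC32A1, the vesicular transporter of inhibitory transmitters (0.0075 ± 0.088), VIP, ADARB2, NOS1, RELN and CHODL were not called. GAD2 lay at the threshold (log2FC -0.17 ± 0.068, FDR = 0.0499) and was lost without Rhesus 3, 6, 7, 8, 10 or 11.

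Myelin genes were several-fold higher in OTG. All 7 tested oligodendrocyte markers were called higher in OTG (background 23.3%), with a median log2FC of -2.12. MBP, the myelin basic protein, lay at 1215 to 2475 CPM (median 2230.2) in OTG and at 217 to 551 CPM (median 396) in TPG (log2FC -2.45 ± 0.10, FDR = 2.55e-10). MOG, on the outer face of the sheath, lay at 39.7 to 93.2 CPM (median 69.6) and 6.68 to 23.1 CPM (median 12.3) (log2FC -2.42 ± 0.16, FDR = 1.99e-08). Neither gene overlapped between the groups, and MOBP (-2.12 ± 0.10), UGT8 (-1.95 ± 0.11), MAL (-1.77 ± 0.13) and CNP (-1.10 ± 0.12) went the same way. The summed oligodendrocyte level was 2419.9 to 5058 CPM in OTG and 494 to 1073 CPM in TPG. In the corpus callosum, a white matter tract, the mean of MBP was 54444 ± 4675 CPM (SD, n = 8). How much white matter each block held was not recorded in the sources used here, and its part in these values was not tested.

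Most markers of other glia that passed the test were higher in TPG. All 5 tested microglial genes passed (background 23.8%), with CSF1R, the receptor that keeps microglia alive, at 34.6 to 67.2 CPM (median 49.3) in TPG and at 16.6 to 30.1 CPM (median 23.6) in OTG (log2FC 1.12 ± 0.13, FDR = 5.06e-06). C1QC (1.00 ± 0.10), P2RY12 (0.94 ± 0.15), TREM2 (0.90 ± 0.17) and PTPRC (0.75 ± 0.19) were also higher, and the summed level was 92.8 to 157 CPM against 41.9 to 89.5 CPM, higher in TPG in all 8 animals. All 4 tested markers of oligodendrocyte precursors were higher in TPG (background 23.8%), among them CSPG4 (1.00 ± 0.079) and PDGFRA (0.25 ± 0.075). Of these, GPR17 and OLIG2 were lost without Rhesus 6, which leaves 2. GFAP, the filament protein of astrocytes, lay at 239.6 to 759 CPM (median 499) in TPG and at 91.4 to 266 CPM (median 235) in OTG (log2FC 1.26 ± 0.19, FDR = 7.81e-05). Of 8 astrocyte markers, 3 were higher in TPG (37.5%) and 1 in OTG (12.5%). AQP4 (0.51 ± 0.11) and ALDH1L1 (0.52 ± 0.084) were higher in TPG, ALDOC (-0.46 ± 0.061) was higher in OTG, and SLC1A2, SLC1A3, GJA1 and FGFR3 were not called. Without Rhesus 4, 5 astrocyte markers were called higher in TPG and 2 in OTG.

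Of 7 vessel genes, 3 were higher in TPG (42.9%) and 1 in OTG (14.3%), of 5 meningeal genes 3 were higher in TPG (60.0%), and of 3 choroid plexus genes 2 (66.7%), against 23.8% and 23.3% of all genes. VWF (0.83 ± 0.18), PECAM1 (0.47 ± 0.11) and PDGFRB (0.20 ± 0.078) were called higher in TPG and the pericyte gene RGS5 (-0.36 ± 0.069) in OTG, while FLT1, CDH5 and SLC2A1 were not called. PDGFRB missed the threshold without Rhesus 6, 7, 8, 10 or 11. The meningeal gene LUM was not called, except without Rhesus 7. The collagens COL1A2 (1.70 ± 0.31) and COL3A1 (1.08 ± 0.22) and the proteoglycan DCN (0.58 ± 0.078) were higher in TPG. The summed meningeal level was 38.5 to 100.1 CPM in TPG and 26.7 to 52 CPM in OTG, and higher in TPG in all 8 animals. CLIC6 (2.14 ± 0.39) and KL (1.04 ± 0.15), both high in choroid plexus, were higher in TPG. FOLR1, which marks choroid plexus, had 9 counts in TPG and 21 in OTG. HBA, an alpha globin gene with near-identical copies, had log2FC 0.46 ± 0.15 and lost its call without Rhesus 11. The part of adhering membranes in the values of other genes was not tested.

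Genes whose models overlap on the genome cannot be told apart in these counts with certainty, because the strand and overlap settings of the counting were not given in the sources used here. Of the 213 tested genes named by rule, 80 overlap another RefSeq gene model, among them MBP (with ZNF236), GASK1B (TMEM144), CACNA1H (TPSG1), PLXNC1 (CEP83), EPHA6 (CRYBG3), C1QL3 (PTER), P2RY12 (MED12L), SYT2 (PPP1R12B) and CACNA1C (DCP1B).

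Genes of granule cells of the dentate gyrus and of striatal neurons were looked at because these structures lie near the temporal pole. C1QL3 (1.32 ± 0.075), PROX1 (0.55 ± 0.14) and C1QL2 (0.45 ± 0.12), which mark granule cells, were higher in TPG (3 of 3 tested, background 23.8%), and the summed level of the granule cell markers was 195 to 257 CPM in TPG and 87.6 to 147 CPM in OTG. C1QL3, a synaptic organizer also made by cortical neurons, lay at 162 to 220.1 CPM (median 189) in TPG and at 61.7 to 92.8 CPM (median 74.3) in OTG (log2FC 1.32 ± 0.075, FDR = 6.11e-09). Of 5 tested striatal markers, GPR6 was higher in TPG (2.01 ± 0.36) and DRD1 in OTG (-0.23 ± 0.074), whereas DRD2, PPP1R1B and RGS9 were not called. The summed level of the striatal markers was 149 to 183 CPM in TPG and 167 to 202 CPM in OTG. The part of granule cells and striatal tissue in these values was not tested. DRD1 was lost without Rhesus 7.

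**Figure D3:**
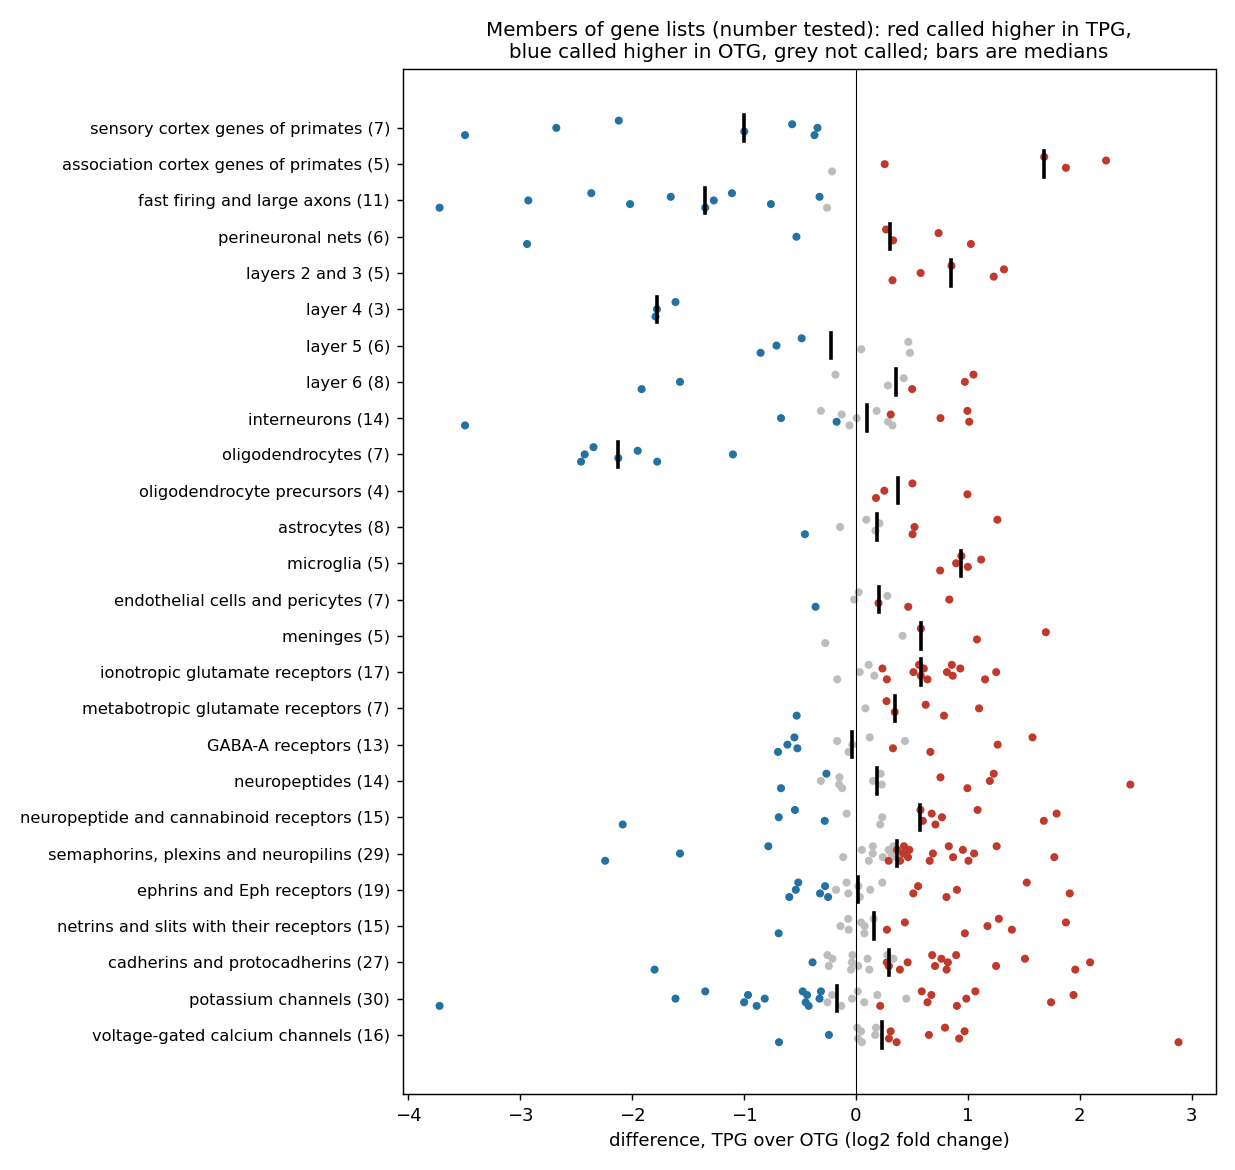
Difference between TPG and OTG (log2FC) of the tested members of 26 gene lists, with the number tested in brackets. Red points were called higher in TPG, blue points higher in OTG and grey points were not called, and black bars give list medians, which lie at -2.12 for oligodendrocytes, -1.78 for layer 4 and 1.68 for association cortex genes.

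Most tested subunits of ionotropic glutamate receptors were higher in TPG. Of 17 tested subunits, 13 were called higher in TPG (76.5%, against a background of 23.8%) and none in OTG by edgeR, and the median log2FC was 0.58. GRIA1, an AMPA receptor subunit tied to synaptic plasticity, lay at 390.0 to 452 CPM (median 439) in TPG and at 138 to 226 CPM (median 179) in OTG (log2FC 1.25 ± 0.077, FDR = 1.12e-08). GRIA4 (0.64 ± 0.10) was also higher, whereas GRIA2 (-0.17 ± 0.073) and GRIA3 (0.11 ± 0.11) were not called. Of the NMDA receptor subunits, GRIN2C (0.93 ± 0.14), GRIN2B (0.86 ± 0.26), GRIN3A (0.81 ± 0.11), GRIN2D (0.58 ± 0.14) and the shared subunit GRIN1 (0.28 ± 0.087) were higher and GRIN2A was not called (log2FC 0.17 ± 0.12, FDR = 0.275). The kainate receptor subunits GRIK5 (0.86 ± 0.11), GRIK2 (0.61 ± 0.087), GRIK1 (0.56 ± 0.092) and GRIK4 (0.51 ± 0.076) were higher, and GRIK3 (0.034 ± 0.17) was not called. With a looser filter on low counts, or without Rhesus 4, 1 subunit was called higher in OTG. Among metabotropic receptors, GRM2 (0.79 ± 0.10), GRM5 (0.62 ± 0.15) and GRM7 (0.35 ± 0.063) were among the 5 of 7 higher in TPG (71.4%), and GRM8 (-0.53 ± 0.10) was higher in OTG.

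Of 13 tested subunits of GABA-A receptors, 4 were higher in TPG and 4 in OTG. Both shares are 30.8%, near the 23.8% and 23.3% of all genes. GABRA3 lay at 23.8 to 45.4 CPM (median 34.6) in TPG and at 7.34 to 16.7 CPM (median 11.5) in OTG (log2FC 1.58 ± 0.11, FDR = 3.34e-08). GABRA5, the subunit of extrasynaptic receptors, lay at 119.6 to 309 CPM (median 216) and 64 to 111 CPM (median 79.9) (log2FC 1.27 ± 0.11, FDR = 5.28e-07). GABRA2 (0.67 ± 0.06) and GABRB1 (0.33 ± 0.076) went along with them. GABRB2 (-0.55 ± 0.15) and GABRG3 (-0.52 ± 0.15) were among those higher in OTG.

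Receptors for serotonin were divided as well, with 4 of 8 tested higher on each side, against 23.8% and 23.3% of all genes. HTR1A, an inhibitory receptor of limbic cortex, lay at 8.21 to 17 CPM (median 12.6) in TPG and at 1.34 to 6.31 CPM (median 4.08) in OTG (log2FC 1.72 ± 0.20, FDR = 7.07e-06). HTR1E (1.36 ± 0.14), HTR4 (0.68 ± 0.13) and the channel subunit HTR3A (0.91 ± 0.29) were higher in TPG, and HTR3A was lost without Rhesus 2 or 6. HTR1B, HTR2A, HTR2C and HTR5A (-0.31 ± 0.10) were higher in OTG, the last of them not without Rhesus 2, 3, 7 or 8. The adrenergic receptor ADRA2C had log2FC 1.59 ± 0.24 and was the sole member of the 8 tested dopamine and adrenergic receptors called higher in TPG (12.5%, under the background). DRD1 was the sole one called higher in OTG. Without Rhesus 10 or 11, 2 of these receptors were called higher in TPG. Of 11 acetylcholine receptor genes, 2 were called on each side (18.2%, under the 23.8% and 23.3% of all genes) and 7 were not called. The called ones were nicotinic subunits, CHRNA6 (1.20 ± 0.28) and CHRNB2 (0.35 ± 0.07) higher in TPG and CHRNA2 (-1.24 ± 0.13) and CHRNA7 (-0.32 ± 0.10) in OTG. CHRNA7 was lost without Rhesus 3 or 7.

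Of 14 tested neuropeptide genes, 5 were higher in TPG (35.7%, against 23.8% of all genes) and 2 in OTG (14.3%, against 23.3%). GRP, which encodes gastrin-releasing peptide, lay at 3.16 to 11.8 CPM (median 7.3) in TPG and at 0.508 to 1.83 CPM (median 1.47) in OTG (log2FC 2.45 ± 0.20, FDR = 1.59e-07), with no overlap. CARTPT, TRH (1.20 ± 0.27), NPY and SST were the others. TAC1 and CCK (-0.26 ± 0.10) were higher in OTG, but CCK missed the threshold without Rhesus 6, 7, 8, 10 or 11. Of 15 peptide and cannabinoid receptors, 8 were higher in TPG (53.3%) and 4 in OTG (26.7%). Somatostatin receptors were on opposite sides. SSTR1 lay at 11.7 to 28.8 CPM (median 19.9) in TPG and at 2.85 to 13.9 CPM (median 4.84) in OTG (log2FC 1.79 ± 0.18, FDR = 1.90e-06), and SSTR4 went the same way (1.68 ± 0.21). SSTR5, at 1.02 to 4.1 CPM (median 1.8) in OTG and 0.111 to 1.01 CPM (median 0.415) in TPG, was higher in OTG (log2FC -2.08 ± 0.30, FDR = 4.64e-05), as was SSTR3 (-0.54 ± 0.081). The cannabinoid receptor CNR1 lay at 53.9 to 89.7 CPM (median 64.9) in TPG and at 18 to 52.4 CPM (median 31.3) in OTG (log2FC 1.09 ± 0.12, FDR = 5.16e-06). NTSR2 (0.77 ± 0.11), NPY2R (0.71 ± 0.23), CRHR1 (0.68 ± 0.08), CCKBR (0.60 ± 0.081) and NPY5R (0.58 ± 0.11) were higher in TPG, and the opioid receptor OPRM1 (-0.69 ± 0.20) and VIPR1 (-0.28 ± 0.10) in OTG. VIPR1 was lost without Rhesus 3, 6, 8, 10 or 11.

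Of 16 voltage-gated calcium channel genes, 8 were higher in TPG (against 23.8% of all genes) and 2 in OTG (12.5%, against 23.3%). CACNA1H, a T-type channel that opens at low voltage, lay at 49.2 to 98.7 CPM (median 81.2) in TPG and at 5.78 to 16.2 CPM (median 9.47) in OTG, a 7.37-fold difference (log2FC 2.88 ± 0.11, FDR = 8.26e-11). CACNA1E (0.97 ± 0.14), CACNA1B (0.92 ± 0.12) and CACNA1C (0.80 ± 0.13) were higher in TPG, and the mean of CACNA1B in TPG was the highest of the 51 sub-regions. CACNB4 (-0.69 ± 0.14) and CACNA2D2 (-0.24 ± 0.083) were higher in OTG, the latter not without Rhesus 2, 8, 10 or 11. Of 30 potassium channel and HCN genes, 9 were higher in TPG (30.0%, against 23.8%) and 13 in OTG (43.3%, against 23.3%). Besides KCNS1, KCNH8 and KCNC1, the OTG genes included KCNH5 (-0.96 ± 0.15) and KCNS3 (-0.81 ± 0.12). KCNG1, a silent subunit that modifies Kv2 channels, lay at 33.7 to 92.2 CPM (median 57.2) in TPG and at 7.19 to 20.7 CPM (median 15.1) in OTG (log2FC 1.94 ± 0.10, FDR = 1.43e-09), and the pacemaker channel HCN4 had log2FC 1.74 ± 0.19. KCNA5 (1.07 ± 0.23) was also higher in TPG.

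Of 29 semaphorins, plexins and neuropilins, which guide axons, 16 were higher in TPG (55.2%, against 23.8% of all genes) and 3 in OTG (10.3%, against 23.3%). The ligand SEMA3D (1.77 ± 0.18) and the receptors NRP2 (1.26 ± 0.069), PLXNA3 (1.06 ± 0.085) and PLXNC1 (1.01 ± 0.075) led in TPG. SEMA7A, a membrane-anchored ligand, went against the others, at 73.6 to 198 CPM (median 166) in OTG and 20.3 to 44.4 CPM (median 33.3) in TPG without overlap (log2FC -2.24 ± 0.10, FDR = 4.30e-10). PLXNC1, known as a receptor of SEMA7A, lay at 132 to 194 CPM (median 169) in TPG, its highest mean of the 51 sub-regions, and at 66.5 to 91.9 CPM (median 86) in OTG. SEMA6D (-0.78 ± 0.084) was higher in OTG as well. Of 15 netrins, slits and their receptors, 7 were higher in TPG (46.7%, against 23.8%), among them ROBO3 (1.39 ± 0.11), SLIT3 (1.28 ± 0.12) and ROBO1 (1.18 ± 0.074). DCC, the netrin receptor, was called higher in OTG (-0.69 ± 0.21) and lost without Rhesus 11.

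Ephrins and Eph receptors were even, with 6 of 19 on each side (31.6%, against 23.8% and 23.3% of all genes). EFNB3, a transmembrane ephrin, lay at 89.1 to 129 CPM (median 107) in TPG and at 21.9 to 35.4 CPM (median 28.4) in OTG (log2FC 1.91 ± 0.075, FDR = 1.62e-10). EPHA6 (1.53 ± 0.10), EPHA8 (0.90 ± 0.26) and EFNB2 (0.81 ± 0.15) were higher in TPG. EFNA5 (-0.60 ± 0.15), EFNA1 (-0.54 ± 0.12), EPHA4 (-0.51 ± 0.13) and EPHB6 (-0.32 ± 0.076) were higher in OTG, where EPHA4 and GABRB2 had their highest means of the 51 sub-regions. Of 27 cadherins and protocadherins, 14 were higher in TPG (51.9%, against 23.8%) and 2 in OTG (7.41%, against 23.3%). PCDH19, of the delta-2 protocadherins, lay at 101 to 199.8 CPM (median 140.3) in TPG and at 38.3 to 64.8 CPM (median 49.6) in OTG (log2FC 1.51 ± 0.12, FDR = 1.30e-07). CDH4 (1.96 ± 0.15), CDH1 (2.09 ± 0.31) and PCDH17 (1.25 ± 0.14) were higher in TPG, and CDH19 (-1.80 ± 0.18), whose mean was highest in the corpus callosum, and PCDH9 (-0.39 ± 0.074) in OTG.

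Transcription factors that pattern cortical areas in development were called 6 of 20 on each side, and the share of 30.0% is near the 23.8% and 23.3% of all genes. NR2F1 (0.49 ± 0.062) and NR2F2 (1.04 ± 0.11), the COUP-TF nuclear receptors of caudal and temporal cortex, were higher in TPG, and NR2F1 had its highest mean of the 51 sub-regions there. NR2F2 lay at 51.1 to 77.1 CPM (median 61.4) in TPG and at 18.1 to 43.6 CPM (median 29) in OTG. BHLHE22 (1.23 ± 0.092) and SP8 (0.61 ± 0.13) were also higher in TPG. FOXP2, TBR1, TSHZ3 (-0.97 ± 0.076) and BCL11A (-0.40 ± 0.073) were higher in OTG. In the retinoic acid pathway, 5 of 15 genes were higher in TPG (33.3%, against 23.8%) and 3 in OTG (20.0%, against 23.3%). The receptor RARB, itself a target of retinoic acid, lay at 33 to 57.4 CPM (median 45.4) in OTG and at 13.4 to 24.2 CPM (median 18.1) in TPG (log2FC -1.37 ± 0.10, FDR = 7.74e-08). The enzymes RDH10 (0.70 ± 0.17), ALDH1A3 (0.81 ± 0.29) and CYP26A1 (0.79 ± 0.22), besides RBP4, were higher in TPG, ALDH1A3 not without Rhesus 2, 10 or 11. RXRB (-0.23 ± 0.065) was higher in OTG.

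Genes that respond to activity or to handling of the tissue had no common direction. Of 13 immediate early genes, NPAS4 (1.38 ± 0.20), NR4A3 (0.89 ± 0.12), NR4A2 and BDNF (0.40 ± 0.095) were higher in TPG (30.8%, against 23.8% of all genes). ARC (-0.96 ± 0.11) and FOSL2 (-0.33 ± 0.13) were higher in OTG (15.4%, against 23.3%), FOSL2 not without Rhesus 2, 3, 6, 8, 10 or 11, and FOS, FOSB, JUNB and EGR2 were not called. Of 5 heat shock genes HSPE1 was called, higher in OTG (-0.47 ± 0.10; 20.0%, against 23.3%). Without Rhesus 2 a further heat shock gene was called higher in OTG. Of 13 interferon-stimulated genes, OAS1 (1.07 ± 0.21), OAS3 (0.88 ± 0.091), MX1 (0.84 ± 0.089) and MX2 (0.59 ± 0.19) were among 5 higher in TPG (38.5%), of which 3 were left without Rhesus 11, and IFI6 (-0.32 ± 0.066) was among 2 higher in OTG (15.4%). The summed level of the interferon-stimulated genes was 213 to 300 CPM in TPG and 243 to 330 CPM in OTG. This sum was higher in OTG in 7 of the 8 animals. Of 14 cholesterol synthesis genes, 6 were higher in TPG (42.9%, against 23.8%), among them DHCR7 (0.82 ± 0.11), LSS (0.73 ± 0.09) and MVK (0.52 ± 0.11). Without Rhesus 2 or 3, 1 of them was called higher in OTG. None of the 26 listed mitochondrially encoded subunits had a matching symbol.

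The 2-fold genes were then followed across all 51 sub-regions, as a description, on CPM scaled over the 408 samples. For each sub-region and animal, the mean log2 level of the 601 TPG genes was placed on a scale from 0% (OTG of that animal) to 100% (its TPG). The genes were chosen for a difference between TPG and OTG, which favors positions between 0% and 100%. The entorhinal and perirhinal cortex (PA) lay at 101.1% ± 6.97 (SD, n = 8), the amygdala (AMY) at 96.2% ± 7.62, the insula (INS) at 82.2% ± 13.8, the anterior cingulate gyrus (ACG) at 81.9% ± 12.5 and the ventromedial prefrontal cortex (vmPFC) at 81.2% ± 6.99. The means of INS, ACG and vmPFC differed by less than their spread. Between the ends of the lobe, the inferior temporal gyrus (ITG) lay at 33.1% ± 14.9 and the superior temporal gyrus (STG) at 36.7% ± 13.9, with a highest animal of 53.7% in STG, and the parahippocampal gyrus (HG) at 57.5% ± 10.5. The fusiform gyrus (FG) lay at 0.52% ± 11.9, as OTG did, and the anterior superior occipital gyrus (aSOG) at -24.1% ± 9.98, beyond OTG. On the scale of the 325 OTG genes, ITG lay at 28.4% ± 14.3, STG at 28.1% ± 19.4, HG at 52.2% ± 9.5, PA at 98.9% ± 12.1 and aSOG at -18.4% ± 18.1.

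The leading genes were followed in the same way. CD36 averaged 25.4 ± 11.7 CPM (SD, n = 8) in PA, 11.2 ± 6.25 CPM in INS, 1.69 ± 1.6 CPM in ITG and 0.114 ± 0.148 CPM in aSOG. KCNS1 averaged 109 ± 29.4 CPM in aSOG, 42.3 ± 21.2 CPM in ITG, 17.7 ± 10 CPM in INS and 1.8 ± 1.04 CPM in PA. In ITG, both genes lay between their levels in TPG and OTG, which their choice for a large difference favors. Among 31 cortical sub-regions, PA not counted, TPG held the highest mean for 353 of the 601 genes (58.7%, against 11.8% of all genes tested), which the choice of the genes favors. With PA counted, TPG was highest for 167 of them (27.8%) and PA for 294 (48.9%). Leaving TPG and OTG out, the highest cortical mean of the 601 genes was most often in ACG (204 genes, 33.9%, against 10.8% of all genes), INS (157, 26.1%, against 8.3%) and vmPFC (148, 24.6%, against 6.62%). Also without TPG and OTG, but with PA counted, PA was highest for 349 of the 601 genes (58.1%, against 19.1% of all genes), ACG and vmPFC for 82 each (13.6%) and INS for 52 (8.65%). For the 325 OTG genes, PA not counted, the highest cortical mean was most often in the posterior superior occipital gyrus (74 genes, 22.8%, against 10.9%), the superior precentral gyrus (67, 20.6%, against 4.3%) and aSOG (48, 14.8%, against 7.39%). Over all 51 sub-regions, 77 of the 325 OTG genes (23.7%, against 14.7% of all genes) were highest in the corpus callosum, and 92 of them (28.3%, against 18.3%) were over 2-fold higher there than in OTG. The other 233 were not over 2-fold higher in the corpus callosum.

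**Figure D4:**
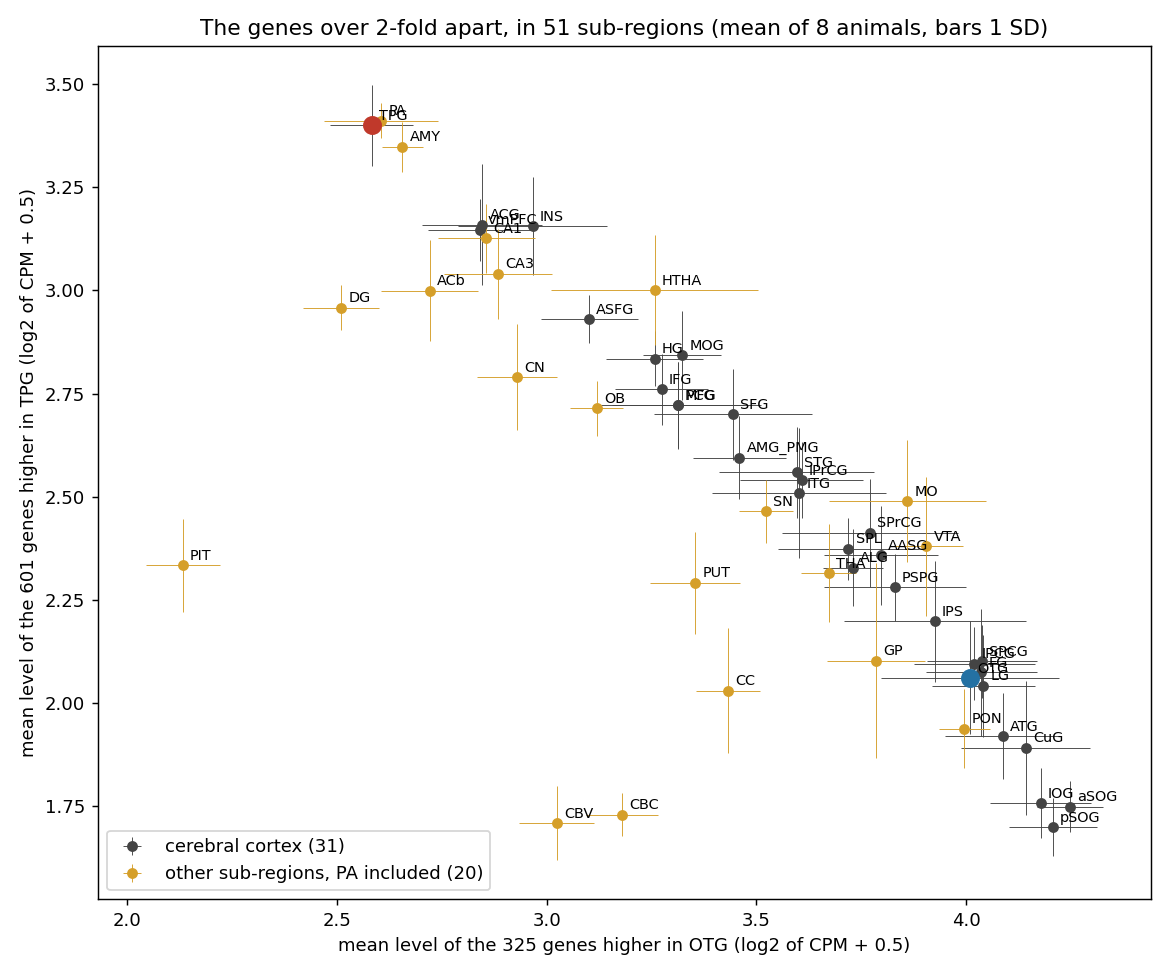
Mean level of the 601 genes higher in TPG (vertical) against that of the 325 genes higher in OTG (horizontal), as log2 of CPM + 0.5, in 51 sub-regions (points are means of 8 animals, bars 1 SD, with PA drawn among the sub-regions outside the 31 cortical ones). Cortical sub-regions run from TPG (red) at the upper left, near PA and AMY, through ITG and STG to OTG (blue) and the occipital gyri at the lower right, while the cerebellum (CBC, CBV), corpus callosum (CC) and pituitary (PIT) lie off this course.

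Whole profiles were compared as a description. Over the genes tested, and among the 50 other sub-regions of the same animal, the profile that correlated best with TPG was that of HG in 3 animals, INS in 3, ACG in 1 and vmPFC in 1. For OTG it was the angular gyrus (ALG) or STG in 2 animals each, and a different gyrus in each of the other 4. Some of these leads were narrow. For TPG of Rhesus 4, vmPFC had r = 0.985139 and INS r = 0.98485. For OTG of Rhesus 10, ALG had r = 0.992148 and the posterior superior parietal gyrus r = 0.992147. These correlations are across genes within an animal, and libraries of an animal share its genotype and history. By likeness to TPG, OTG ranked between 17 and 27 of the 50 in the 8 animals, and PA between 8 and 16.

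The same genes were examined in pairs of sub-regions that share no sample with TPG or OTG, although they come from the same animals. In each pair, genes with few counts in both sub-regions were left out of the test. A TPG gene with few counts in the occipital gyrus thus entered only if INS or PA held enough, which favors the shares below. Between INS and aSOG, 542 of the 601 TPG genes were tested and 519 (95.8%) were called higher in INS, where 22.6% of all genes tested were. Of the 325 OTG genes, 323 were tested and 308 (95.4%) were called higher in aSOG, against 21.1% of all genes. In the opposite direction, 2 TPG genes and no OTG gene were called by edgeR. Between PA and the inferior occipital gyrus (IOG), 528 of 561 TPG genes tested (94.1%, against 27.3%) were higher in PA and 282 of 315 OTG genes (89.5%, against 26.8%) were higher in IOG, while 7 TPG genes were called in the opposite direction. Counted by sign alone, 551 of the 561 TPG genes were higher in PA, where 50.3% of all genes were, and 539 of the 542 were higher in INS, where 49.6% were. The median log2FC of the tested TPG genes was 1.51 between INS and aSOG and 1.84 between PA and IOG, and that of the OTG genes -1.30 and -1.46. PRKCD had log2FC 3.61 ± 0.17 between INS and aSOG and 5.03 ± 0.11 between PA and IOG, CD36 6.65 ± 0.38 and 7.77 ± 0.37, and PVALB -3.08 ± 0.17 and -4.99 ± 0.17. MBP had log2FC -1.94 ± 0.17 and -1.49 ± 0.13 there. DACT2 had -0.90 ± 0.21 and -0.85 ± 0.36, the latter not called.

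**Figure D5:**
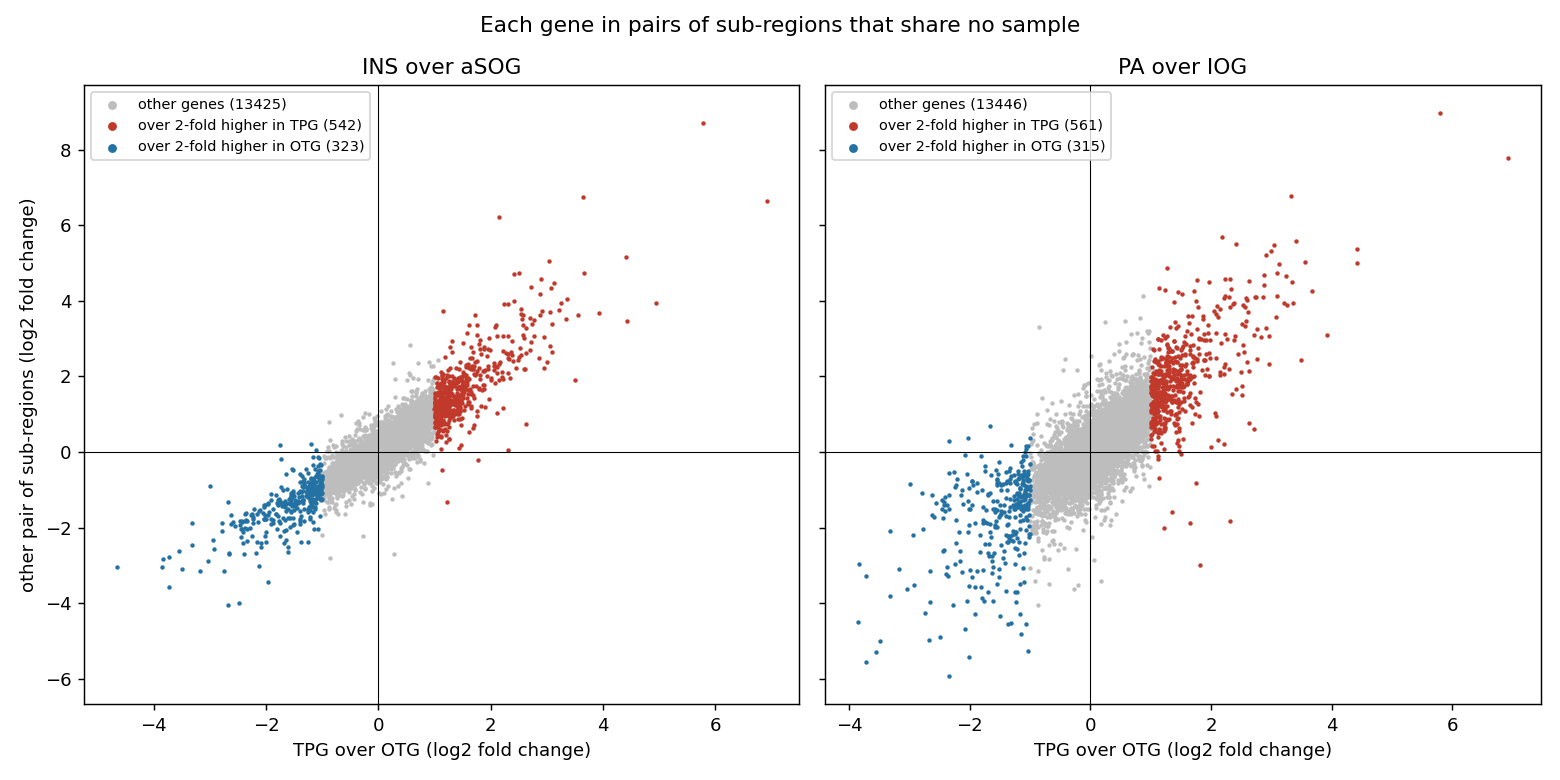
Difference between TPG and OTG (log2FC, horizontal) against that between INS and aSOG (left) or PA and IOG (right) for all genes tested in both, with genes over 2-fold higher in TPG in red and in OTG in blue. Of the red genes 519 and 528 were called higher in INS and PA, and of the blue genes 308 and 282 were called higher in aSOG and IOG.

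The number of genes whose difference between TPG and OTG was called to depend on age stage or sex changed with the tool and the filter. With edgeR, 0 of 14499 genes had an interaction with age stage (4 young against 4 mid-aged animals) at an FDR below 0.05, the lowest FDR being 0.48, and 887 genes (6.12%) had an unadjusted p below 0.05. With sex (4 males against 4 females), 0 genes were called, the lowest FDR being 0.994, and 584 genes (4.03%) had an unadjusted p below 0.05. DESeq2 called 5 genes for age stage (lowest FDR 0.00157) and 0 for sex. With no filter on low counts, edgeR called 97 of 23838 genes for age stage (lowest FDR 1.18e-09) and 3 for sex (lowest FDR 0.0273). With 4 animals a side, a gene whose difference depends on age or sex can be missed.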

How the data were processed

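RNA-seq counts were analysed for 16 samples, TPG and OTG of 8 macaques, out of 408. Per the study's methods, the authors trimmed the reads of samples with poor quality (Trim Galore 0.4.4), mapped reads (HISAT2 2.0.5) to the rhesus genome and deposited whole-number counts per gene (HTSeq 0.6.1). Libraries were directional. How HTSeq treated strand and overlapping genes was not given in the sources used here. Of 30807 genes, 17572 had a symbol in the gene name table.

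Counts were filtered (filterByExpr), scaled (TMM) and tested with edgeR 4.0.16 (quasi-likelihood F test, Benjamini-Hochberg FDR) on animal and region, in R 4.3.3. The standard error of a log2FC is its size divided by the square root of F. Same-numbered samples come from the same animal and deviated together (r = 0.419 to 0.654; median of different animals -0.0917), so the animal was a block. Totals of 8955543 to 19414263 counts set the precision, and samples of an animal are single dissections. Levels over sub-regions used TMM over all samples and a pseudocount of 0.5. In counts simulated for this comparison over 14407 genes, 93 of 100 2-fold and 100 of 100 4-fold changes were recovered, with 11 other calls.

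For each direction the rule ranked called genes over 2-fold by log2FC and named the first 10 that had a symbol, went the same way in all 8 animals and averaged 1 CPM or more on the higher side. Of each of the 42 lists it named up to 4 called members per direction, and it added all members of the sensory and association lists and the defining markers. Further members are named only to account for a list. The comparison, members and lists were chosen with earlier results of these data known. Alternatives were DESeq2 1.42.0, its size factors, other filters, no block, thinning, a fit over all cortical sub-regions and leaving out each animal. Counting PA among the cortical sub-regions was added after seeing the data. The RefSeq table (assembly T2T-MMU8v2.0) served only for names of overlapping genes. Some genes are not reported here. Assembled transcripts and the chromatin data were not used.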

Additional observations from a re-analysis of the deposited data

Results flagged for a closer look

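Among 402 groups of 8 samples of the named genes, 22 held a library that stood apart from the other 7 by Dixon's criterion, and chance alone flags about 1 group in 20. The OTG library of Rhesus 4 was the lowest in 5 of them, with TBR1 at 25.8 CPM (median of the 8 OTG libraries 75.4), KCNS1 at 17.9 CPM (median 77.3), PLXNC1 at 66.5 CPM (median 86.0), EFNB2 at 4.4 CPM (median 8.74) and FOSL2 at 20.5 CPM (median 40.3). Without Rhesus 4, all 213 tested genes that the rule names stayed on the same side of the threshold.

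In TPG, Rhesus 3 had the lowest levels of EYA4 (1.95 CPM, median 4.79), SSTR4 (2.05 CPM, median 4.45) and PCDH9 (83.8 CPM, median 129). Rhesus 8 had the lowest TPG levels of KL (8.4 CPM, median 15.0), PNMA5 (41.5 CPM, median 60) and CHRNA6 (1.03 CPM, median 2.8). Rhesus 10 had the highest TPG level of PDGFRA (186 CPM, median 146) and the lowest of SPOCK2 (385 CPM, median 448) and PTGER3 (2.66 CPM, median 7.06). Single high TPG values were those of PECAM1 in Rhesus 11 (39.8 CPM, median 20.5), CLIC6 in Rhesus 7 (16.9 CPM, median 5.46) and TRH in Rhesus 6 (10.2 CPM, median 1.24). In OTG, Rhesus 7 was lowest for VIPR1 (16.5 CPM, median 30.3) and CDH19 (4.13 CPM, median 11.5), Rhesus 6 for RDH10 (1.93 CPM, median 3.19) and ROBO1 (22.6 CPM, median 30.9), and Rhesus 2 for NPAS4 (0.352 CPM, median 2.91).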

How the results depend on the processing

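Against the 6828 genes called, DESeq2 called 6505 (6437 of them among the 6828), DESeq2 size factors 6814 (6785 shared), thinned counts 6364 (6192 shared) and a fit over all cortical sub-regions 7075 (6140 shared). Without the animal as a block (no pairing), 4886 genes were called, 2458 higher in TPG and 2428 in OTG. Leaving out 1 animal gave 5894 to 6915 calls, 3004 to 3453 in TPG and 2890 to 3462 in OTG, with 562 to 636 over 2-fold higher in TPG and 313 to 338 in OTG. The 601 genes over 2-fold higher in TPG became 997 with the detection rule of the study as filter and 983 with no filter, since more genes of low counts were tested. All 926 genes over 2-fold were called in the same direction by DESeq2, its size factors, both other filters and the cortical fit, 900 without the block, 880 after thinning and 910 to 923 without 1 animal. For age stage, 5 genes were called by DESeq2 and 97 with no filter, and for sex 3 with no filter, against 0. The cause was not tested. Of 3190 alternative values of the 213 named genes tested, 3045 kept their side of the threshold, 134 lost and 11 gained a call, and none reversed. The block accounted for 33 of the losses. Of 1230 list counts, 79 moved by over 1.5 times. Depth limits genes of few counts, such as DMKN, NXNL2 and RDM1.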
